A study of Bos taurus with 2 samples.

Results

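The genes described here make up the machinery that folds, modifies and exports proteins made on the endoplasmic reticulum (ER), together with the sensors and transcription factors of the unfolded protein response that adjust this machinery to the protein load. The list held 60 genes by symbol. A gene was found on the arrays when the RefSeq accession of a probe was paired with its symbol in the bovine RefSeq table, which held for 46 of the 60 genes, with 116 probes in all. The arrays as a whole gave 9647 gene symbols by the same match, and 43639 probes. HYOU1, DNAJB9, P4HB, PDIA6, TXNDC5, ERN1, ATF6, CREB3L1, CREB3L4, SEL1L, SPCS2, SEC24D, SEC31A and KDELR3 were not matched in this way and are outside the counts below unless stated. P4HB is described separately, through the accession that the study pairs with it. CREB3L4 is also in the tables of the study, but it and the other unmatched genes were not analysed here.

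The RNA came from the front of the muzzle of 2 female HanWoo (native Korean) cows of 30 months, which the methods describe as raised under like conditions on 1 farm. The light-muzzle cow is labelled as having yellow nose tissue and the dark-muzzle cow as having black nose tissue. Each cow was hybridised to 1 Agilent bovine array on the same slide, read in 1 colour. With 1 cow per muzzle colour there is no replicate, no test was made, and each difference below is one between 2 animals. A piece of muzzle can hold epidermis, glands, vessels, dermis and muscle together, and in such a mixture fewer cells of a type and less RNA per cell cannot be told apart.

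Proteins bound for secretion or for the cell membrane enter the ER through the SEC61 channel, lose their signal peptide, receive sugar chains and are folded with the help of chaperones and of enzymes that form disulfide bonds. Chains that fail to fold are sent back to the cytosol for degradation, and those that succeed leave in vesicles for the Golgi. When unfolded chains accumulate, the sensors IRE1 (gene ERN1), PERK (gene EIF2AK3) and ATF6 raise the production of this machinery through XBP1 and cleaved ATF6 and, through PERK and ATF4, reduce translation and raise genes of stress adaptation. Secretory cells such as gland cells and antibody-producing plasma cells are rich in these proteins even when not under stress, and XBP1 is needed for them to build their ER.

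Values are given as log2 levels, that is, the log2 of a probe's background-subtracted brightness minus the 75th percentile of its array, so that 0 is the brightness of that percentile. The percentile was an intensity of 1144 in light muzzle and 1137 in dark muzzle, and 78.8% and 81.9% of noncontrol spots were well above background. A log2 ratio is the level in dark muzzle minus that in light muzzle, and a gene's value is the mean over its probes that were well above background in both cows. Levels are set against each other only for the same probes, since the brightness of different probes cannot be compared. A probe well above background in only 1 cow gives a lower bound. All of the 46 genes found had at least 1 probe measured in both cows, 113 of their probes were so measured, and the other 3 were above background in only 1 cow. The Feature Extraction software gives an error for each signal, and from it the standard error of a probe's log2 ratio had a median of 0.20 over the 113 probes, with a range of 0.20 to 0.30. This error is the software's own estimate for the reading of the array and does not cover the difference between animals. It was nearly the same at all bright probes. Each of these probes had 1 spot, so the error was not measured from repeated spots.

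Most of the ER genes were lower in dark muzzle. Of the 46 genes, 37 had a log2 ratio below 0, and 13 were at least 2-fold lower, a share of 28.3%. Over all 8914 genes with a symbol and a ratio, 6.47% were at least 2-fold lower and 44.8% were below 0. In the other direction, 1 of the 46 genes was at least 2-fold higher, against 9.86% of all genes. The median log2 ratio was -0.60 for the ER genes and 0.065 for all genes. The ER genes lay between -1.80 (SEC23B) and 2.38 (ATF3), and their middle 50% between -1.15 and -0.19. Counted by probe, 33 of 116 probes were at least 2-fold lower and 2 were at least 2-fold higher, and over all 36631 probes with a ratio these shares were 7.17% and 9.76%. HSPA5 and CREB3L2 are in the tables of the study, which took its genes from these arrays, and their values here are no independent evidence of the direction. The study also ran real-time PCR on its tabulated genes, in a larger set of cows that included those on the arrays. It reported patterns similar to those of the arrays. Without HSPA5 and CREB3L2, 12 of 44 genes were at least 2-fold lower. The list as a whole was chosen with earlier results of these data known, so its difference from all genes is not free of that choice.

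**Figure D1:**
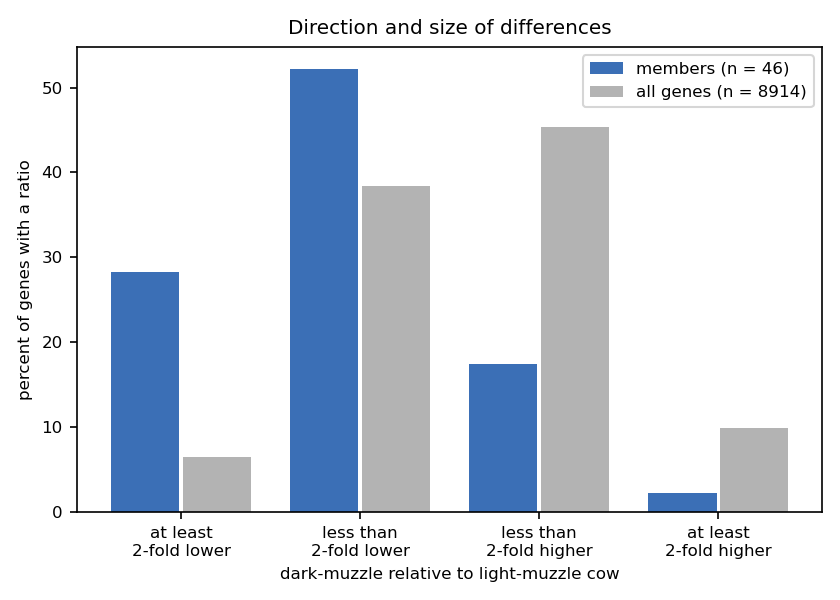
Share of genes with a ratio, in percent, that were lower or higher in dark muzzle, by at least 2-fold or by less, for the 46 ER genes (blue) and for all 8914 genes (grey). Among the ER genes 28.3% were at least 2-fold lower and 2.17% at least 2-fold higher, and among all genes 6.47% and 9.86%.

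Among the chaperones and lectins, all of the 9 genes measured were below 0 and 4 were at least 2-fold lower, with a median log2 ratio of -0.82. HSPA5 (BiP), the main Hsp70 chaperone of the ER, had a mean level of 2.23 in light muzzle and 1.41 in dark muzzle, a log2 ratio of -0.82 or 1.77-fold lower. Its 4 probes were all lower in dark muzzle, with log2 ratios of -0.78, -0.77, -0.58 and -1.16 from the brightest to the dimmest, so that only the dimmest of them passed 2-fold. CALR (calreticulin), a chaperone that binds the sugar chains of new glycoproteins and stores calcium, went from a mean level of 3.20 in light muzzle to 1.98 in dark muzzle, 2.33-fold lower. Its 6 probes, whose levels in light muzzle ran from -0.31 to 6.29, gave log2 ratios between -1.37 and -1.08, so the difference had a similar size at dim and at bright probes. CANX (calnexin), the membrane-bound counterpart of calreticulin, differed from it. Its mean level was 0.80 in light muzzle and 0.66 in dark muzzle, a log2 ratio of -0.14 from 7 probes that ran from -0.41 to 0.22, and the mean was above 0 when the arrays were scaled to the spike-in controls.

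The other chaperone genes at least 2-fold lower in dark muzzle were each measured by 1 probe. SDF2L1, which works with BiP on unfolded chains, went from a level of 1.13 in light muzzle to -0.19 in dark muzzle, a log2 ratio of -1.32. CRELD2, a secreted protein induced by ER stress, went from 1.43 to 0.16, a log2 ratio of -1.27. DNAJC3 (p58IPK), a co-chaperone of BiP, went from 2.90 to 1.79, a log2 ratio of -1.11. SDF2L1, CRELD2 and CALR stayed at least 2-fold lower under every processing choice tried, and DNAJC3 did not with the spike-in scaling, where it was -0.92. HSP90B1 (GRP94), the Hsp90 of the ER, had a level of 4.11 in light muzzle and 3.68 in dark muzzle, a log2 ratio of -0.42. MANF, a secreted ER stress protein (-0.60, from probes at -0.62 and -0.57), and DNAJB11, a further BiP co-chaperone (-0.37, from probes at -0.39 and -0.35), were below 0 by less than 2-fold.

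The enzymes that form and rearrange disulfide bonds were less uniform. None of the 6 genes measured passed 2-fold, 4 were below 0 and 2 above, and the median log2 ratio was -0.51. With only the brightest probe of each gene the median was -0.73. P4HB, described below, is not among the 6. ERP29 (-0.87 over 3 probes), PDIA4 (-0.81 over 3 probes) and PDIA3 (-0.61 from 1 probe) were lower in dark muzzle. ERP29 is a chaperone related to the disulfide isomerases, and PDIA3 acts on glycoproteins held by calreticulin and calnexin. PDIA5 had a mean log2 ratio of -0.40 that came from probes that disagreed. Its brighter probe went from 0.10 in light muzzle to -0.90 in dark muzzle, a log2 ratio of -1.003, and its dimmer probe from -4.69 to -4.47, a ratio of 0.21. ERO1A, the oxidase that feeds disulfide bonds into the isomerases, and ERP44, which retains ERO1A and unassembled immunoglobulin subunits in the early secretory pathway, ran the other way. ERO1A had a log2 ratio of 0.43 (3 probes, 0.33 to 0.64) and ERP44 one of 0.59 (probes at 0.43 and 0.75), and both were above 0 under every processing choice tried.

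P4HB (PDI), a disulfide isomerase and a subunit of collagen prolyl hydroxylase, is named here by the study's accession and was one of the genes it tabulated. Its mean level was 2.73 in light muzzle and 1.57 in dark muzzle, a log2 ratio of -1.16 or 2.23-fold lower. The 4 probes gave log2 ratios of -1.09, -0.86, -1.40 and -1.28 from the brightest to the dimmest. The study lists a smaller fold decrease for P4HB, short of 2-fold, and also a smaller one for HSPA5 than found here. With P4HB counted, 14 of 47 genes were at least 2-fold lower, and the median of the disulfide enzymes was -0.61 in place of -0.51.

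The sensors and transcription factors split into genes that were lower, genes that hardly differed and 1 gene that was higher in dark muzzle. Of 9 measured genes, 3 were at least 2-fold lower, 1 was at least 2-fold higher and 5 lay between, and the median log2 ratio was -0.31. XBP1, the factor that IRE1 activates by splicing its mRNA and that drives genes of folding, degradation and ER growth, had a mean level of 4.25 in light muzzle and 2.71 in dark muzzle, 2.91-fold lower. Its 3 probes had log2 ratios of -1.35, -1.75 and -1.51. The files used here hold no probe sequences, and whether a probe separates spliced from unspliced XBP1 was not analysed here. EIF2AK3 (PERK) had a mean level of -1.66 in light muzzle and -2.99 in dark muzzle, 2.51-fold lower, with probes at -1.22, -1.39 and -1.37, and its log2 ratio was -0.90 under normexp background correction, short of 2-fold. CREB3L2, a membrane-bound factor of secretory cells that is cut free in the Golgi, had mean levels of -1.36 and -2.67, 2.48-fold lower, with probes from -1.78 to -0.71, and was likewise short of 2-fold under normexp, at -0.94. The related CREB3 had a log2 ratio of -0.48 over 3 probes.

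The factors downstream of PERK had unlike values. ATF4, the factor whose translation rises when PERK is active, had a mean level of 2.88 in light muzzle and 2.98 in dark muzzle, a log2 ratio of 0.11 from 3 probes between 0.029 and 0.27. DDIT3 (CHOP), its target linked to cell death, had mean levels of 0.78 and 0.66, a log2 ratio of -0.13 from probes that agreed, which was above 0 with the spike-in scaling. TRIB3, another target and an inhibitor of the branch, had a log2 ratio of 0.32 (3 probes, 0.25 to 0.38). ATF3, which stress and growth signals induce within a short time and which is also a target of ATF4, had a level of -0.47 in light muzzle and 1.91 in dark muzzle. This was 5.21-fold higher, from 1 probe, and the log2 ratio lay between 2.32 and 2.57 over the processing choices. PPP1R15A (GADD34), which reverses the block of translation, was close to the detection limit and its probes disagreed. The probe measured in both cows went from -4.09 to -4.41, a log2 ratio of -0.31, and the other was above background only in dark muzzle, with a lower bound of 1.85. Its mean was above 0 without a filter on dim probes, with levels raised to the detection limit and under normexp, so PPP1R15A has no settled direction.

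**Figure D2:**
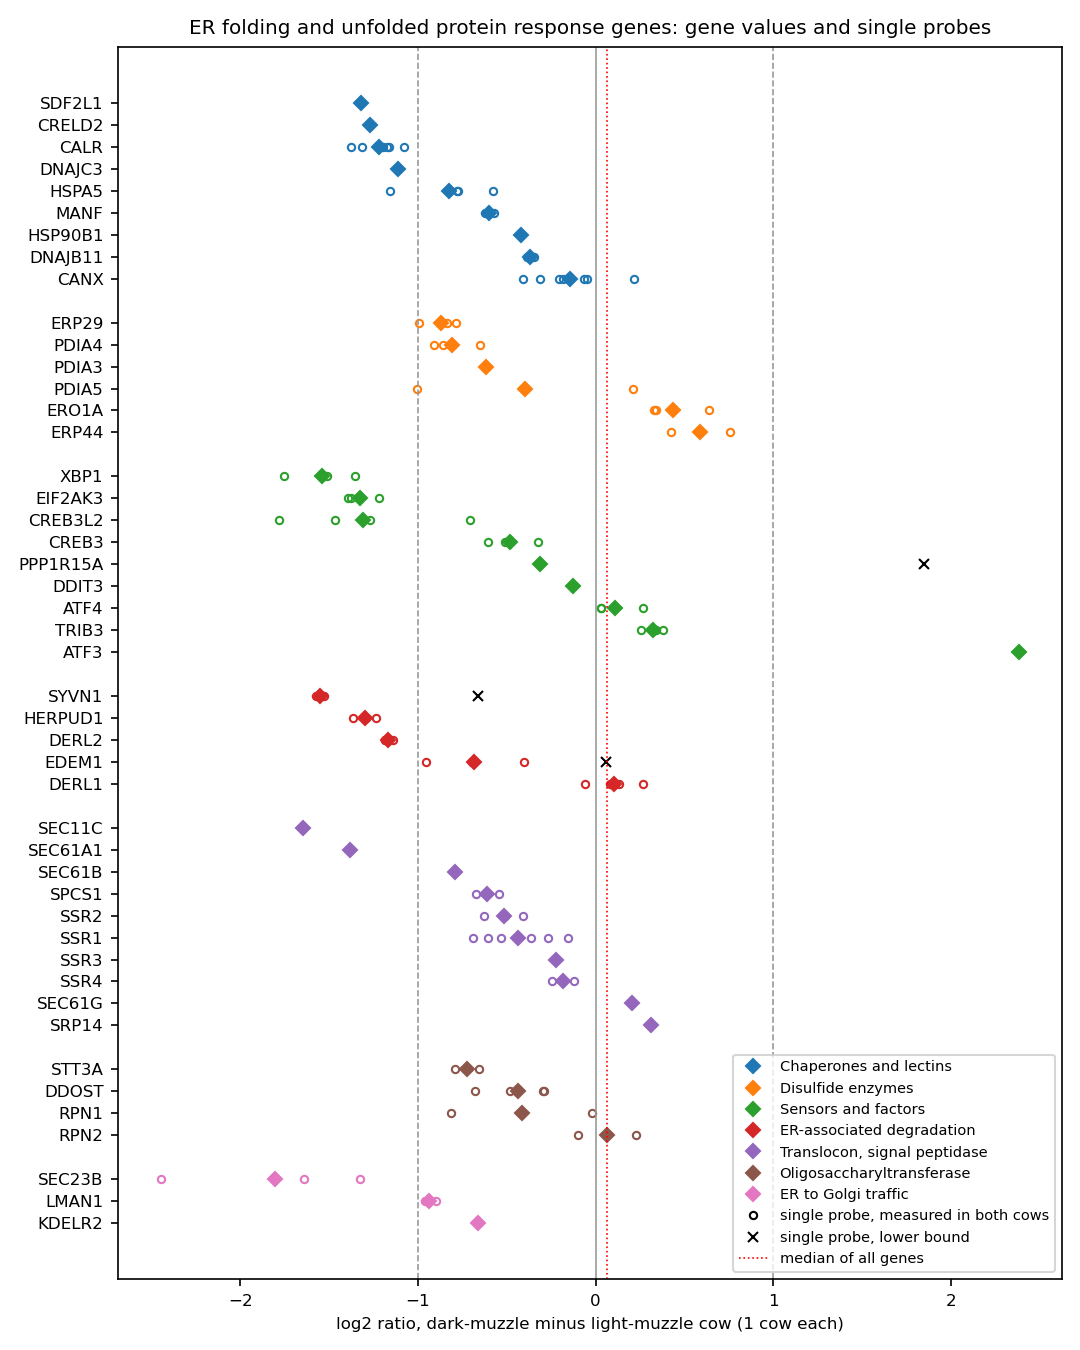
Log2 ratio of each of the 46 ER genes, dark-muzzle minus light-muzzle cow, grouped and coloured by role. Diamonds are gene values, open circles single probes measured in both cows, crosses lower bounds, dashed lines 2-fold and the dotted red line the median of all genes (0.065). Most diamonds lie left of 0, and ATF3 (2.38) lies far to the right of the others.

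Genes of ER-associated degradation had the lowest median of the 7 groups, -1.17 over 5 measured genes, of which 3 were at least 2-fold lower in dark muzzle. SYVN1 (HRD1), the ubiquitin ligase of the degradation channel, had mean levels of 0.067 in light muzzle and -1.48 in dark muzzle, 2.93-fold lower, from probes at -1.53 and -1.57. A further SYVN1 probe was above background only in light muzzle, with a bound of -0.66. HERPUD1, an adaptor of that channel and a target of the unfolded protein response, had levels of 0.83 and -0.47, 2.46-fold lower, with 3 probes between -1.36 and -1.23. DERL2, a rhomboid-like component of the channel, had levels of 3.15 and 1.98, 2.25-fold lower, with 3 probes between -1.18 and -1.14, and a log2 ratio of -0.98 with the spike-in scaling. EDEM1, which trims the sugars of chains marked for degradation, had a log2 ratio of -0.69, from probes at -0.96, -0.70 and -0.40. A further EDEM1 probe was above background only in dark muzzle, by a bound of 0.057. DERL1, the paralog of DERL2, had a mean log2 ratio of 0.11, its 4 probes running from -0.057 to 0.27, and did not share the lower level of DERL2.

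In the group of genes for entry into the ER, 8 of 10 measured genes were below 0 and 2 were at least 2-fold lower, with a median log2 ratio of -0.48. SEC11C, a catalytic subunit of the signal peptidase, had a level of 5.01 in light muzzle and 3.37 in dark muzzle, 3.13-fold lower. SEC61A1, the pore of the SEC61 channel, went from 1.45 to 0.069, 2.61-fold lower. Both come from 1 probe, and both were at least 2-fold lower under every processing choice tried. The smaller subunits of the same channel differed from SEC61A1 in size or direction, with a log2 ratio of -0.79 for SEC61B and 0.20 for SEC61G, each from 1 probe. The signal peptidase subunit SPCS1 had a log2 ratio of -0.61. The 4 subunits of the translocon-associated protein complex, which lies beside the channel, were SSR2 (-0.51), SSR1 (-0.44), SSR3 (-0.22) and SSR4 (-0.18), and SSR4 was at 0.0057 with the spike-in scaling. SRP14, a protein of the signal recognition particle that brings ribosomes to the channel, had a log2 ratio of 0.31 and lay above 0 under every processing choice tried.

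The oligosaccharyltransferase, which adds sugar chains to proteins as they enter the ER, had no subunit past 2-fold. STT3A, a catalytic subunit, had a log2 ratio of -0.72 (probes at -0.79 and -0.65), DDOST one of -0.44 and RPN1 one of -0.42. The RPN1 value averaged a bright probe at -0.81 and a dim one at -0.018. RPN2 had a log2 ratio of 0.064 that turned to -0.098 when only its brighter probe was used.

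Of the genes for transport between ER and Golgi, 3 were measured and all were lower in dark muzzle. SEC23B, a coat protein of the vesicles that leave the ER, had a log2 ratio of -1.80, the lowest of the 46 genes as reported. Its mean level was -1.27 in light muzzle and -3.08 in dark muzzle, 3.49-fold lower, with probes at -1.64, -2.44 and -1.33. Under normexp background correction its log2 ratio was -1.20, above those of SEC11C (-1.63) and XBP1 (-1.56), and with the brightest probe or the median over probes (-1.64 in each) SEC23B was not the lowest either. LMAN1 (ERGIC-53), a cargo receptor for glycoproteins, had a log2 ratio of -0.94 from 3 probes between -0.96 and -0.90. KDELR2, a receptor that returns escaped chaperones to the ER, had one of -0.66 from 1 probe.

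**Figure D3:**
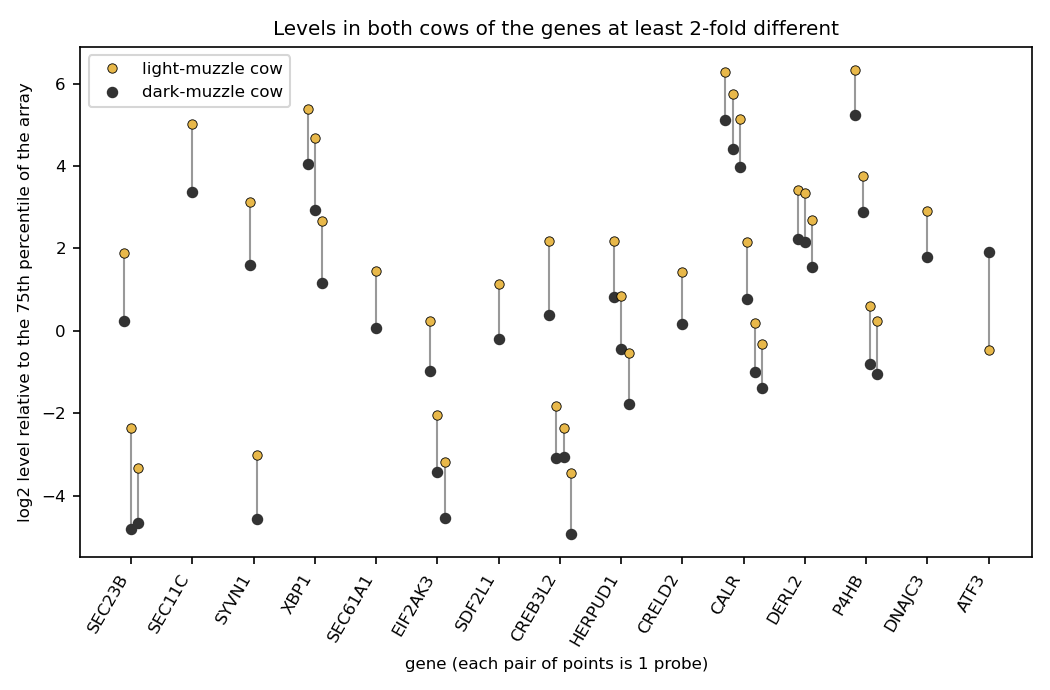
Log2 level of each probe measured in both cows, relative to the 75th percentile of its array, for the 14 ER genes at least 2-fold different and for P4HB. Each line joins the light-muzzle (yellow) and dark-muzzle (black) level of 1 probe, and for every probe shown except that of ATF3 the light-muzzle level is the higher.

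Different probes of a gene agreed for most of these genes. Of the 32 genes with at least 2 probes measured in both cows, 28 had probes of the same sign. The other 4 were CANX, PDIA5, DERL1 and RPN2. The SD of the log2 ratio between probes of a gene had a median of 0.14 for the ER genes and 0.17 over 5363 genes of the arrays. For 7 of the 8 genes that were at least 2-fold lower and had several probes, every probe measured in both cows was at least 2-fold lower, and CREB3L2 was the exception. The remaining 5 at least 2-fold lower genes rest on 1 probe each.

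Further genes of the same processes, taken from lists of related genes, were lower in some processes and not in others. Of 34 other ER folding genes, 25 were below 0, 4 were at least 2-fold lower and 1 at least 2-fold higher, with a median log2 ratio of -0.44. The lowest was AGR2, a disulfide isomerase of mucus-producing cells, with levels of 0.065 in light muzzle and -2.84 in dark muzzle and a log2 ratio of -2.90. It was followed by TXNDC11 (-1.44, from 1 of its 2 probes) and the chaperone CLGN (-1.24, dim in dark muzzle at -4.83). PDIA2 came next (-1.06), with probes at -1.87 and -0.24. CALR3, a relative of calreticulin found mainly in testis, had a log2 ratio of 1.84 from the single dim probe, of 4, that was measured in both cows. Of 31 other genes of ER to Golgi transport, 24 were below 0 and 4 at least 2-fold lower, with a median of -0.49. The lowest were SEC16B (-2.89), ERGIC1 (-1.22) and TMED3 (-1.07). The value of SEC16B comes from 1 probe that was dim in dark muzzle, at -5.02. Of 14 other genes of translocation and glycosylation, 2 were at least 2-fold lower, SRPRA (-1.21) and TRAM1 (-1.002), and the median was -0.38. The shares at least 2-fold lower were 11.8% for folding, 12.9% for transport and 14.3% for translocation and glycosylation, beside 6.47% of all genes. For folding, 2.94% were at least 2-fold higher, beside 9.86% of all genes. These differences in share were not tested.

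The lists of other degradation and signalling genes had no gene past 2-fold, beside 6.47% lower and 9.86% higher among all genes. With 15 and 12 genes, the lists are too short for this to set them apart from all genes. The 15 other genes of ER-associated degradation had a median log2 ratio of 0.056 and lay between -0.77 and 0.41, where the 5 degradation genes above had a median of -1.17 and lay between -1.55 for SYVN1 and 0.11 for DERL1. The difference between these lists was not tested. The 12 other genes of unfolded protein response signalling, among them ATF6B (-0.25) and the proteases MBTPS1 (-0.22) and MBTPS2 (-0.075) that cut ATF6, had a median of -0.19, with 8 below 0, and lay between -0.61 and 0.75, beside a median of -0.31 with 6 of 9 below 0 for the sensors and factors above. Of 21 measured ATF4 targets, many of which make or import amino acids, 15 were above 0 and the median was 0.15. VLDLR (1.44) and SESN2 (1.38) were at least 2-fold higher in dark muzzle, a share of 9.52% beside 9.86% of all genes. NUPR1, a stress-induced nuclear protein, was the only one of the 21 at least 2-fold lower, a share of 4.76% beside 6.47% of all genes, with levels of 4.57 and 1.89 and a log2 ratio of -2.67.

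Most chaperones outside the ER lay on the other side of 0. Of 15 chaperones of the cytosol, 14 were above 0, with a median log2 ratio of 0.58 and a range of -0.15 for HSPA4 to 0.86 for BAG3, whose 3 probes ran from -0.60 to 1.63. HSPA8, the cytosolic relative of HSPA5, went from a mean level of 3.03 in light muzzle to 3.83 in dark muzzle, a log2 ratio of 0.81 over 6 probes that were all above 0. HSP90AA1, a cytosolic relative of HSP90B1, had a log2 ratio of 0.53 over 6 probes. The probe of HSPA1A (0.62) may also bind a near-identical gene copy. Of 8 chaperones and proteases of the mitochondrion the median was 0.58, with 0.87 for HSPA9, the mitochondrial Hsp70, and 0.63 for HSPD1. No gene of either list passed 2-fold, beside 6.47% lower and 9.86% higher among all genes. No difference between these lists and the ER genes was tested.

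**Figure D4:**
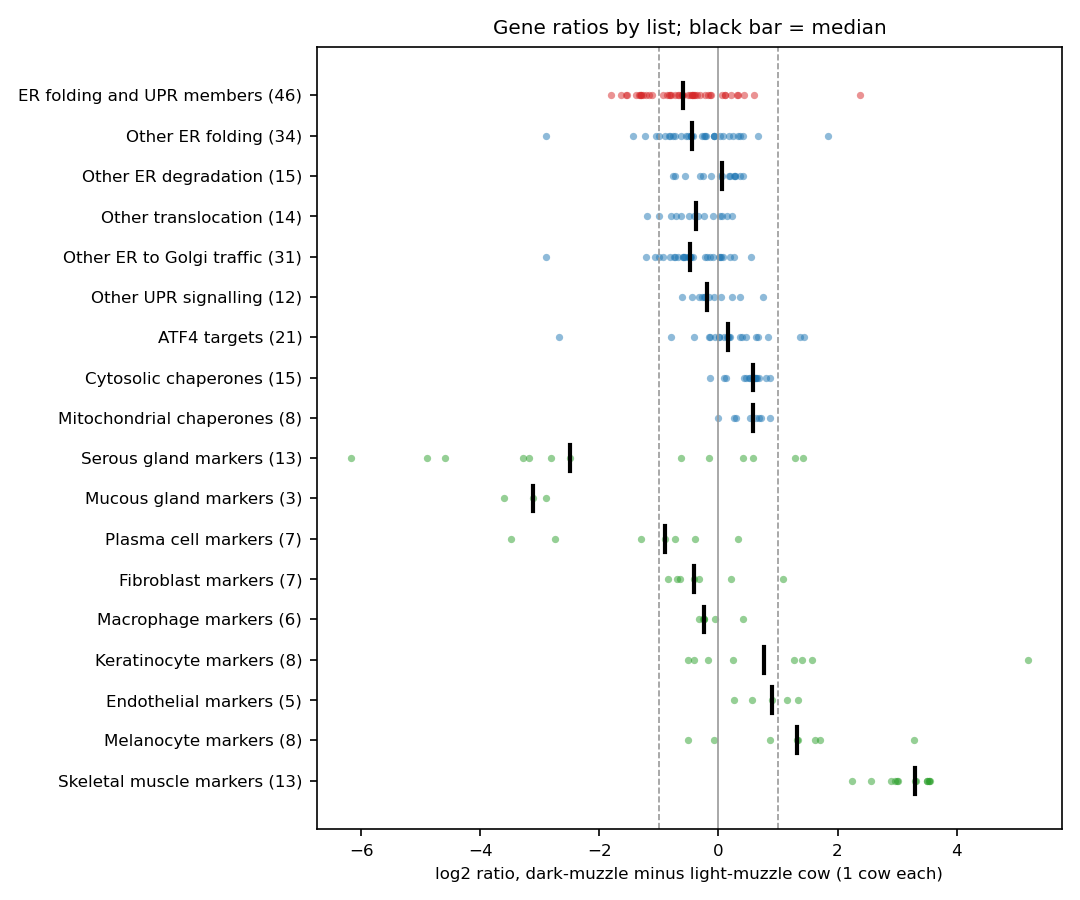
Log2 ratios, dark-muzzle minus light-muzzle cow, of the 46 ER genes (red), of related gene lists (blue) and of cell type markers (green), 1 point per gene, with the number of genes in parentheses and the median as a black bar. The ER genes have a median of -0.60, cytosolic and mitochondrial chaperones one of 0.58 each, and markers of serous glands, mucous glands and plasma cells lie lowest.

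Most markers of secretory cells were also lower in dark muzzle, in the same direction as most of the ER genes. Of 13 serous gland markers with a ratio, of 18 on the list, 7 were at least 2-fold lower, among them MSMB (-6.18), PIP (-4.89) and LTF (-4.59), and the median log2 ratio was -2.50. Their summed brightness, in units of the 75th percentile of the array, was 1000 in light muzzle and 567 in dark muzzle, summed over the same probes in both. The secretoglobins SCGB1D and SCGB2A2 made up 676 and 523 of these sums, and the other 12 serous markers with a probe 324 and 43.6. Such sums weigh bright probes most and include dim ones, so they compare the cows and not the amounts of different genes. By log2 ratio, SCGB1D (-0.15) and SCGB2A2 (-0.63) differed by less than 2-fold. CST6 (1.43) and BPIFA1 (1.29) were at least 2-fold higher, each from 1 probe. That of BPIFA1 was dim, with levels of -5.17 in light muzzle and -3.89 in dark muzzle. LPO (0.57) and LYZ (0.40) were higher by less than 2-fold. STATH was not well above background in dark muzzle and counts among the 7 lower genes by its bound. ODAM was well above background in neither cow. The 3 mucous gland markers measured of 8, SPDEF, TFF3 and AGR2, lay between -3.61 and -2.90, and their summed brightness was 49.1 and 4.13. Of 7 measured plasma cell markers of 10, POU2AF1 (-3.48), JCHAIN (-2.75) and MZB1 (-1.31) were at least 2-fold lower, SDC1 was at 0.33, the median was -0.91 and the summed brightness was 50.3 and 14.0. FKBP11, DERL3 and MZB1 of that list are ER proteins themselves. AGR2 and FKBP11 are also among the other ER folding genes above, and DERL3 among the other degradation genes, so the same values enter both kinds of list. The part of gland cells and plasma cells in the lower level of the ER genes was not tested.

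Markers of other cells moved apart. Keratinocyte markers, which check the labelled tissue, were measured in both cows for 8 of 14 genes. KRT10, a keratin of the differentiated epidermis, had levels of 6.92 in light muzzle and 8.49 in dark muzzle. The list had a median log2 ratio of 0.76 and 4 genes at least 2-fold higher, KRT4 most of all (5.20), while 3 of the 8 were below 0, the basal keratins KRT5 (-0.52) and KRT14 (-0.41) and the desmosomal DSC3 (-0.18), with a summed brightness of 557 in light muzzle and 907 in dark muzzle. The 13 skeletal muscle markers measured of 17 were all at least 2-fold higher in dark muzzle, with a median of 3.31 and a summed brightness of 234 and 1474. Medians were -0.42 for 7 of 9 fibroblast markers (83.2 and 55.9), -0.24 for 6 of 7 macrophage markers (6.67 and 6.45), 0.90 for 5 of 6 endothelial markers (6.07 and 13.9) and 1.32 for 8 of 12 melanocyte markers (2.45 and 5.26), where the values in parentheses are the summed brightness in the light-muzzle and the dark-muzzle cow. The melanocyte markers TYRP1 and EDNRB were well above background only in dark muzzle and enter as lower bounds. The part of these cell types in the ratios of the ER genes was not tested either.

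The ER genes had a median below 0 under each scaling of the arrays tried. Relative to the median of all genes, the median of the ER genes was -0.67 as reported and lay between -0.71 and -0.64 under the processing choices tried. Scaling to the 8 spike-in controls that were detected well in both cows moved the median of all genes by 0.19, from 0.065 to 0.25, and the median of the ER genes to -0.42. With it, 451 of all genes were at least 2-fold lower and 1180 at least 2-fold higher, where the percentile shift gave 577 and 879, and 11 of the ER genes were at least 2-fold lower.

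**Figure D5:**
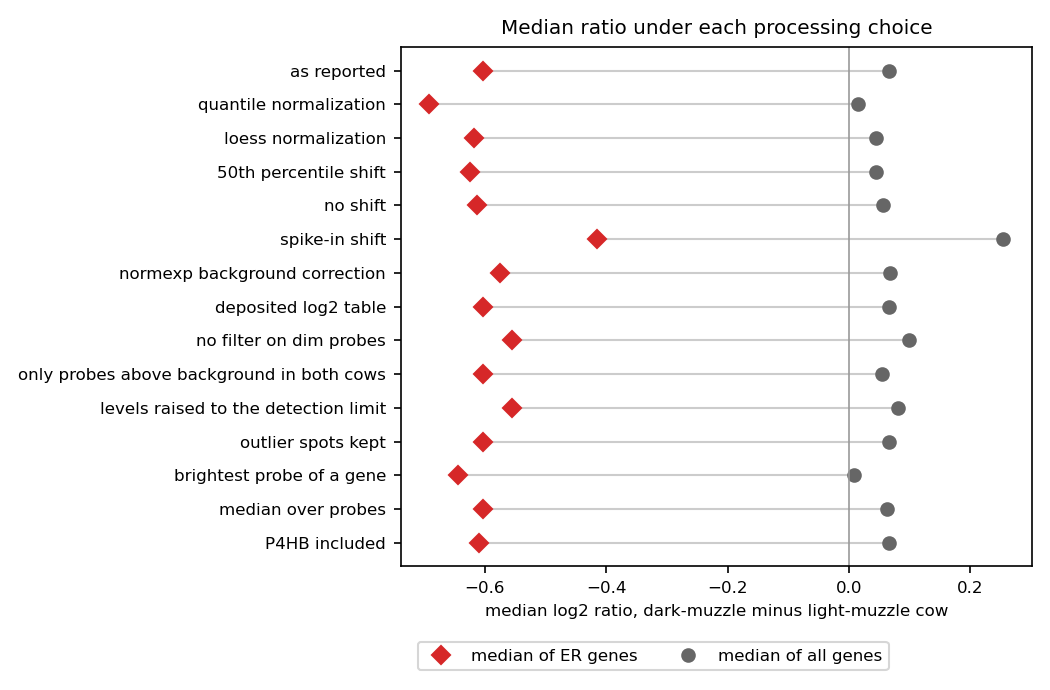
Median log2 ratio, dark-muzzle minus light-muzzle cow, of the ER genes (red diamonds) and of all genes (grey circles) under each processing choice. The ER genes stay between -0.69 and -0.42, and the 2 medians move together under the spike-in shift.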

How the data were processed

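Muzzle RNA of 1 light-muzzle and 1 dark-muzzle cow was measured on Agilent 1-colour arrays. The authors deposited Feature Extraction 10.7.3.1 output, which gives each spot's intensity as a processed signal, with the background subtracted and spatial trends removed. They also deposited a log2 table made in GeneSpring, used only as an alternative, which lay within 0.01 of the log2 signals shifted to their 75th percentile for 43628 of 43639 probes on the light-muzzle array. Here that shift was applied to the processed signals, without control spots and without the 13 outlier spots of each array, and repeated spots of 1 probe were averaged. No spot was saturated. Accessions were matched, without versions, to the RefSeq table of ARS-UCD2.0, which named 20587 probes. No coordinates were used.

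A probe above background in only 1 cow was given a lower bound: its bright level minus the higher of its dim level and the other array's detection limit, the lowest level that counted as well above background (-5.78 light, -5.81 dark). A gene without a probe measured in both cows took its largest bound. With 1 array per group no test was made, and precision is limited by how few arrays there are. Levels in both cows were given for 9 lead chaperones, sensors and factors, where measured, and for each gene with a value or a probe past 2-fold. The genes described and the related lists were chosen with earlier results of these data known.

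Alternatives were quantile and loess (span 0.3) normalization, shifts to the 50th percentile or the spike-in transcripts, no shift, normexp background correction (offset 50, on median pixel signals), the deposited table, other treatments of dim probes, outlier spots and several probes, and thresholds of 1.5-fold and 3-fold. Inclusion of P4HB and omission of HSPA5 and CREB3L2 were added after the data had been seen. Limma 3.58.1 in R 4.3.3, Python 3.11.15, numpy 2.4.6 and pandas 2.3.3 were used, and the steps were tested on simulated data.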

Additional observations from a re-analysis of the deposited data

How the results depend on the processing

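The count of 13 ER genes at least 2-fold lower in dark muzzle stayed between 11 and 14 under the other normalizations, scalings, background corrections, filters and probe choices, and these were among the same 13 genes apart from PDIA5, gained with the brightest probe, and P4HB, gained when it was included. DERL2 and DNAJC3 were lost with the spike-in scaling, and CREB3L2 and EIF2AK3 under normexp. Over all genes, 577 lower and 879 higher became 371 and 635 under normexp. At 1.5-fold, 24 of the 46 genes were lower and 2 higher, beside 13.6% and 19.8% of all genes. At 3-fold, 2 of the 46 were lower and 1 higher, beside 3.03% and 4.69% of all genes. Without a filter on dim probes, 2 genes were at least 2-fold higher, since PPP1R15A joined ATF3. The median log2 ratio was -0.42 with the spike-in scaling, which moves all genes alike, and between -0.69 and -0.56 otherwise. Without HSPA5 and CREB3L2 it was -0.56. Gene values below 2-fold changed sign for CANX, DDIT3 and SSR4 with the spike-in scaling, for RPN2 with the brightest probe, and for PPP1R15A under normexp and both settings that averaged in its dim probe. Naming by a gene name column was not run, since only accessions name the probes in the files used here. No paired analysis was possible because each muzzle colour has 1 cow. The 5 lower genes with 1 probe each have no check by another probe.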
